A study of Mus musculus with 10 samples.

Results

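The genes of the NF-κB transcription factors and of the inhibitors that they induce were compared between the gastrocnemius muscles of young and aged mice. The 10 genes were the subunit genes Nfkb1, Nfkb2, Rel and Rela, the IκB genes Nfkbia, Nfkbib, Nfkbiz and Bcl3, and the feedback genes Tnfaip3 and Birc3, of 37947 gene symbols in the deposited table. The symbols had 39 of its 92251 transcripts, 28 of them above 0 in any library, and each gene was represented by its most abundant transcript, judged by the mean of the 10 libraries. The mice were male and of the C57BL/6 strain, and the labels name no allele or treatment. The young mice were 6 months old and the aged mice 24 months old, with 5 libraries for each age. Poly-A RNA of whole muscle was sequenced, so that a level is that of all cells of the muscle together. Values are log2 FPKM, a level for the length of the transcript and the size of the library, and an FPKM of 1 or less is listed as 0.

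NF-κB proteins bind DNA as dimers that are kept in the cytoplasm by IκB proteins until a receptor of the TNF, interleukin or Toll-like families activates the IκB kinases. In the canonical branch IκBα is degraded and RelA with p50, the product of Nfkb1, enters the nucleus, whereas in the noncanonical branch the kinase NIK leads to the processing of p100, the product of Nfkb2, to p52. Several of the genes that NF-κB induces, among them Nfkbia, Nfkb2, Tnfaip3 and Birc3, encode its own inhibitors or precursors, and in skeletal muscle the pathway is known for its activity during disuse, denervation and inflammation.

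Since the genes are themselves described as NF-κB targets, their promoters were searched for the κB consensus, a motif of 10 bases, on both strands and with overlapping matches counted. RefSeq windows (GRCm38.p6) of 250 bases before and 50 bases after the transcription start were given for 8 of the 10 genes, all but Nfkb1 and Nfkbiz. A match was present in the windows of 5 genes, Nfkb2, Rel, Nfkbia, Tnfaip3 and Bcl3, and in 7 of the 11 windows of the members, where 2764 of 32544 windows of all genes (8.49%) held one. All 3 start sites of Nfkb2 had a match in their window, and no match was found in the windows of Rela, Nfkbib and Birc3, nor at the second start of Tnfaip3. The bases before the start are shown for the subunit gene that differed between the ages and for 2 inhibitor genes with a match close to the start, Nfkbia, which did not pass the test, and Tnfaip3, whose level was below the minimum for testing, with the matched bases in capitals.
Nfkb2, start 1, chr19:46304487-46304736, plus strand: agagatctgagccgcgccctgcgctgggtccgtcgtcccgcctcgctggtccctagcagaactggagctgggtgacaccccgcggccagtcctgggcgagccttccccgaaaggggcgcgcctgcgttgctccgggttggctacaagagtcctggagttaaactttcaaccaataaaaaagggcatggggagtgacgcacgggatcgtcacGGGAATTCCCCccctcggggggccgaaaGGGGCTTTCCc
Nfkb2, start 3, chr19:46305680-46305929, plus strand: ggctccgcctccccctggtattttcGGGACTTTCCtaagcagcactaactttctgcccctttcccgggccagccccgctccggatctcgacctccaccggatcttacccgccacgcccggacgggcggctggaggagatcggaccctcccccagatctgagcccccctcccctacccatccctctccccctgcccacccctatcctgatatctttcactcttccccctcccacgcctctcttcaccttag
Nfkbia, chr12:55492648-55492897, minus strand: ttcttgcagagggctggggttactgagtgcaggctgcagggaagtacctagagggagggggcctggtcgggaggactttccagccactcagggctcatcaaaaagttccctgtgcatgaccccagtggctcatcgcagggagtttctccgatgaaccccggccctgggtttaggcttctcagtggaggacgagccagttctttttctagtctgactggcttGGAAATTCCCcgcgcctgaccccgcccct
Tnfaip3, start 1, chr10:19015411-19015660, minus strand: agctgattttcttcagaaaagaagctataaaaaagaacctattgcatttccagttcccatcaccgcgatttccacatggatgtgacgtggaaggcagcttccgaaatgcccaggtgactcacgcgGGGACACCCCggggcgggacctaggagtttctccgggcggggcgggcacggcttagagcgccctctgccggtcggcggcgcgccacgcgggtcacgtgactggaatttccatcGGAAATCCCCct
In the first window of Nfkb2 the matches began 39, 38 and 11 bases before the start, and in that of Nfkbia the match began 29 bases before it. The Tnfaip3 window had matches 125 and 12 bases before the start. A match says only that these letters are present.

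**Figure D1:**
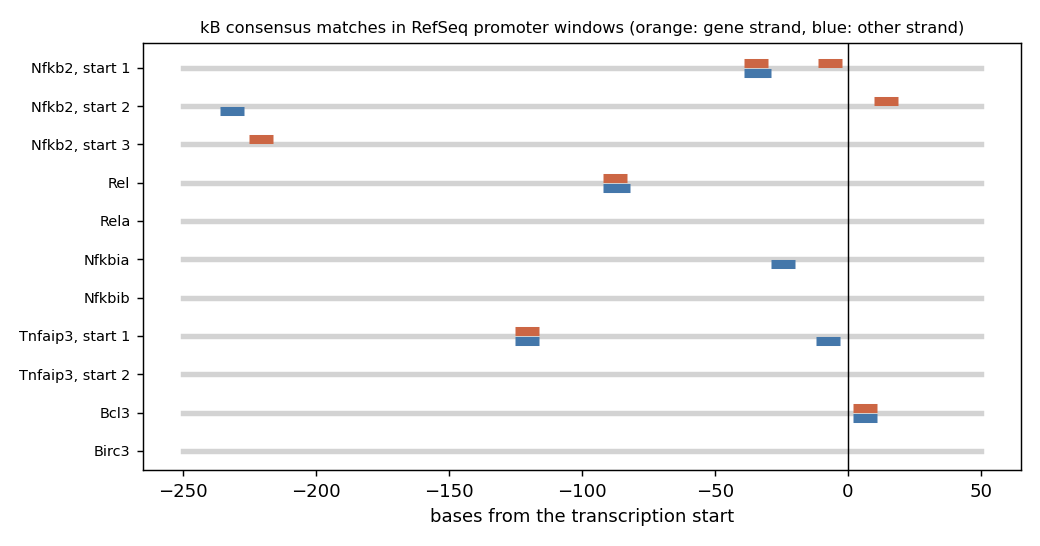
Positions of κB consensus matches in the RefSeq promoter windows of 8 members, in bases from the transcription start (x axis), with 1 grey line for each window, orange bars for matches on the strand of the gene and blue bars for the other strand. The 3 windows of Nfkb2 hold matches, and those of Rela, Nfkbib, Birc3 and the second start of Tnfaip3 hold none.

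The depths inferred from the steps between values were 19.9 to 34.6 M reads, so that an FPKM of 1 on 1 kb stands for 19.9 to 34.6 reads. The 8 muscle fiber markers were present in every library at a summed FPKM of 92731 to 116030 in young and 85451 to 114544 in aged muscle. Of these 1, Myh4, was lower in aged muscle by the exact permutation test, but not by limma. Its limma unadjusted p was 0.0780 without a block and 0.0697 with the library number as a block. The libraries numbered 3 were the deepest of each age, yet had the fewest transcripts above 0, 35024 in young and 29878 in aged muscle against 38855 to 43296 in the others, and the genes whose call changes without both of them are named. Of 7 macrophage markers tested, Lyz2 and C1qb were higher in aged muscle, Cd68 was at 0 in 4 of 5 young libraries and reached the minimum for testing only through the aged libraries, and the other 4 did not pass. By limma with the block C1qa and C1qc passed as well (limma unadjusted p = 0.0418 and 0.0398), a change of test as well as of design. The 12 macrophage markers listed summed to 19.9 to 51.0 FPKM in young and 35.9 to 169 in aged libraries. The 9 lymphocyte markers were at 0 in all young libraries and reached 11.3 FPKM in total in aged library 4, with Cd3e, Cd3d, Cd4 and Cd8a at 0 throughout. The 4 neutrophil markers were also at 0 in young muscle and summed to at most 3.21 FPKM in aged muscle, with Csf3r and Ly6g at 0. Of 4 endothelial markers none passed the test, and of 4 fibroblast markers Col3a1 was lower in aged muscle. Col1a1 was lower by limma with the block (limma unadjusted p = 0.0193).

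By level, the classical inhibitors Nfkbib and Nfkbia stood at the top, and the atypical IκB genes Bcl3 and Nfkbiz near the bottom. The mean log2 FPKM over all libraries was 4.31 for Nfkbib, 3.69 for Nfkbia, 2.69 for Rela, 2.20 for Nfkb1, 1.80 for Nfkb2 and 1.52 for Birc3, followed by 0.15 for Bcl3 and 0.06 for Tnfaip3, whereas Rel and Nfkbiz were listed at 0 in all libraries. Nfkbia was above Rela in 10 of 10 libraries and Rela above Nfkb1 in 9. The neighbours Nfkbib and Nfkbia overlapped in level, with Nfkbib the higher in 8 libraries, as did Nfkb2 and Birc3, with Nfkb2 the higher in 6. These levels are those of 1 transcript for each gene. The longest Nfkbib transcript, Nfkbib-001, averaged 3.37, below Nfkbia, while Nfkbib-002 averaged 4.09. The protein-coding Birc3-001 averaged 0.67. Nfkb1 was above Nfkb2 in all 5 young libraries and in 3 of the 5 aged libraries. The plot of the 10 genes by library shows these levels with the spread in each age.

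**Figure D2:**
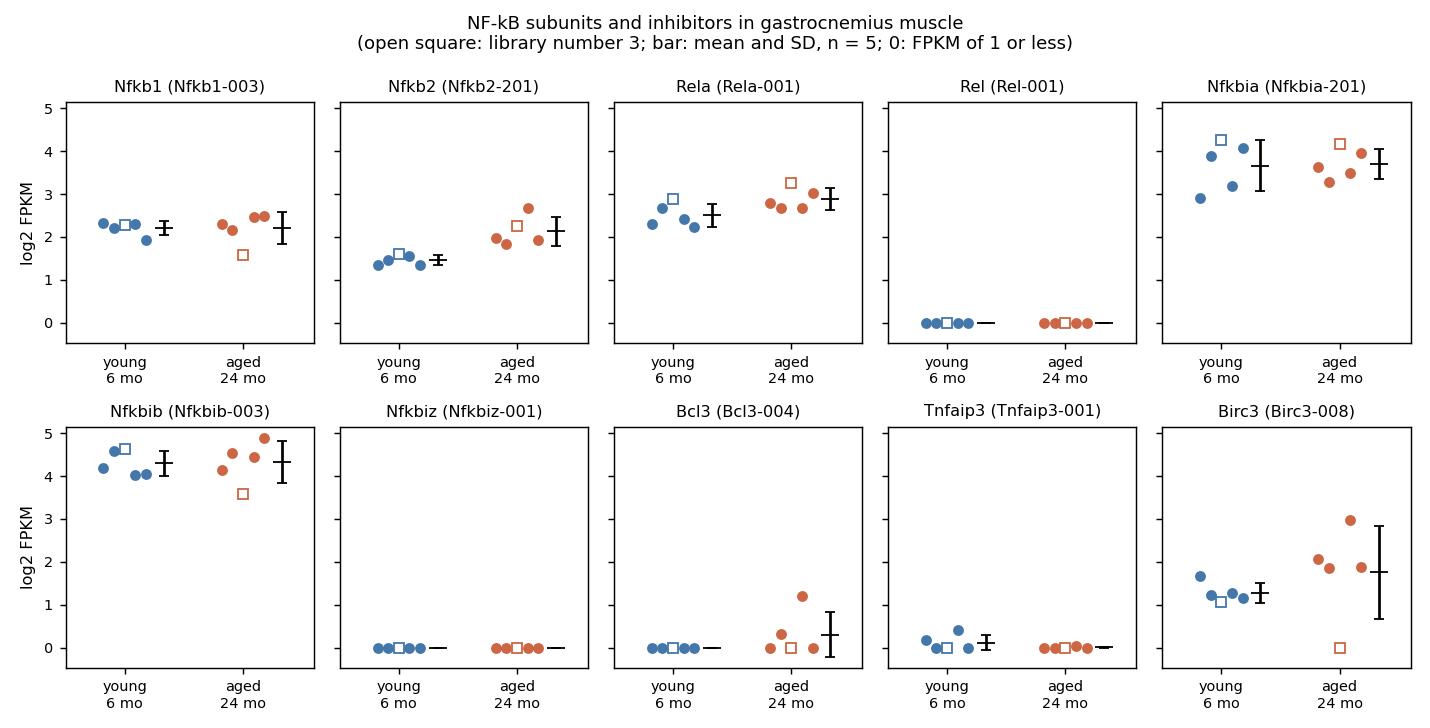
Log2 FPKM (y axis) of the 10 members in young (blue) and aged (orange) gastrocnemius muscle, 1 point for each library, with the mean and SD of each age (n = 5) at the right of the points and open squares for the libraries numbered 3. Nfkb2 is the member whose aged libraries all lie above its young libraries, and Birc3 is at 0 in aged library 3.

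Of the 10 genes, 6 had a mean FPKM of at least 1 and were tested (Nfkb1, Nfkb2, Rela, Nfkbia, Nfkbib and Birc3). By the exact two-sided permutation test of 5 libraries against 5, 1 of the 6, Nfkb2, was higher in aged muscle at an unadjusted p under 0.05 and none was lower. Over all 10161 genes tested in the same way 7.73% were higher and 1.5% lower, so that 1 of 6 does not set the members apart. No member passed the 2-fold criteria of the study, a difference of means over 1 on the log2 scale with a p under 0.05 in its 2-sample test, against 1.11% of all genes. With limma and Benjamini-Hochberg adjustment over all 38059 transcripts, 0 members had an adjusted p under 0.05, against 0.00984% of genes, and 1 member, Nfkb2, had an unadjusted limma p under 0.05. The median difference was 0.21 on the log2 scale over the 6 members and 0.07 over all genes tested.

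Nfkb2 (chr19:46300994-46312400, GRCm38) encodes p100, which holds RelB in the cytoplasm and is the precursor of p52. Its log2 FPKM was 1.34, 1.45, 1.61, 1.56 and 1.34 in young libraries 1 to 5 and 1.97, 1.84, 2.25, 2.67 and 1.93 in aged libraries 1 to 5. Every aged library lay above every young library, which was so for 2.08% of all genes. The mean rose from 1.46 ± 0.12 to 2.13 ± 0.34 (SD, n = 5), a difference of 0.67 (SE 0.18, 95% interval 0.27 to 1.07) or 1.59-fold (1.20 to 2.10), with an exact permutation p of 0.00794, the smallest that 5 against 5 libraries can give. The limma adjusted p was 0.735. Aged library 4, with the highest value, also had the highest summed macrophage and lymphocyte markers, and without it the difference was 0.54. The part of such cells in the difference was not tested, and in whole muscle more cells of a type and more RNA in each cell cannot be told apart.

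Both listed transcripts of Nfkb2 gave the same picture, Nfkb2-202 with a difference of 0.68 and no overlap of the ages, though they share most of their reads. The values of Nfkb2-201 stood for 154 to 322 reads in young and 235 to 514 reads in aged libraries. Between libraries of the same number the aged library was higher by 0.63, 0.39, 0.64, 1.11 and 0.59 for numbers 1 to 5. The 5 pairs thus moved in the same direction, for which an exact sign-flip test gives 0.0625, its smallest p with 5 pairs.

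Rela (chr19:5637442-5648134) encodes the transactivating subunit of the canonical dimer. Its log2 FPKM was 2.30, 2.68, 2.89, 2.41 and 2.24 in the young libraries and 2.80, 2.67, 3.25, 2.68 and 3.03 in aged libraries 1 to 5. The ages overlapped, since young library 3 was above 3 of the aged libraries. The difference was 0.38 (95% interval -0.03 to 0.79, n = 5 for each age) and did not pass the exact permutation test (p = 0.0635). It passed with the library number as a block (limma unadjusted p = 0.0452, adjusted p = 0.603), with 4 of 5 pairs higher in aged muscle, and without young library 3, where the difference was 0.48 (exact permutation p = 0.0317).

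Nfkb1 (chr3:135584655-135691969) encodes p105, the precursor of p50. The young libraries were listed at 2.32, 2.20, 2.27, 2.31 and 1.93 and the aged libraries at 2.31, 2.17, 1.58, 2.46 and 2.50. The means were 2.21 ± 0.16 and 2.20 ± 0.37 (SD, n = 5), with an exact permutation p of 0.992 and a 95% interval of the difference from -0.44 to 0.44. The most abundant transcript, Nfkb1-003, has the length of a retained intron transcript of 2520 bases in GENCODE. The protein-coding Nfkb1-001, of 4117 bases, had values of 1.70 to 2.07 in young libraries and of 2.03, 1.98, 0.92, 2.40 and 2.26 in aged libraries, a difference of 0.03 (exact permutation p = 0.952). Aged library 3 was the lowest for all 6 transcripts of Nfkb1, tied at 0 with young library 3 for Nfkb1-002, and down to 0.39 for Nfkb1-006.

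The remaining measured subunit, Rel (chr11:23736847-23770969), encodes c-Rel, the subunit typical of lymphoid and myeloid cells. Its only transcript was at 0 in all 10 libraries, so that it was not detectable above an FPKM of 1. RelB, the partner of p52, was not among the 10 genes, and its most abundant transcript ranged from 0 in aged library 3 and 0.63 in young library 3 to 10.15 in young library 2, with no call between the ages (exact permutation p = 0.563, n = 5). With the library number as a block, 2 of the 9 Relb transcripts were lower in aged muscle, this one among them (limma unadjusted p = 0.0468, adjusted p = 0.605), and over the 9 the unadjusted p ran from 0.0397 to 0.190. It is named here for its role as partner, after its values were seen.

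Nfkbia (chr12:55489409-55492647) encodes IκBα, the inhibitor that is resynthesized within a response. Its log2 FPKM was 2.91, 3.90, 4.26, 3.18 and 4.08 in young and 3.64, 3.29, 4.16, 3.49 and 3.96 in aged libraries. The young libraries alone spanned more than the aged libraries, which lay between the young extremes. The difference was 0.04 with a 95% interval of -0.61 to 0.70 (exact permutation p = 0.881, n = 5), which as a ratio of aged to young runs from 0.657 to 1.62. Over the 10 libraries, the genes with the values most like those of Nfkbia among 10160 others were Max (Pearson r 0.938), Nudt18 (0.934), Anapc16 (0.928), Notch4 (0.922) and Tsc22d3 (0.911), given as a description, since the libraries share depth and scaling.

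Nfkbib (chr7:28758251-28766644) encodes IκBβ, the more slowly degraded inhibitor. The values were 4.19, 4.59, 4.63, 4.02 and 4.05 in young and 4.14, 4.53, 3.59, 4.45 and 4.89 in aged libraries. Aged library 3 was the lowest of all and aged library 5 the highest. The difference was 0.02 (95% interval -0.54 to 0.58, exact permutation p = 0.960, n = 5). Leaving out both libraries numbered 3 gave 0.29 (exact permutation p = 0.257). The longer Nfkbib-001 and Nfkbib-002 did not share the low value of aged library 3, where they were at 3.60 and 4.31, and differed by 0.25 and 0.24 between the ages (exact permutation p = 0.206 and 0.214).

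Nfkbiz and Bcl3 encode atypical, nuclear IκB proteins that act with p50 and p52 on chromatin. The 5 transcripts of Nfkbiz (chr16:55811375-55838954) were at 0 in all 10 libraries. Bcl3 (chr7:19808462-19822824) was at 0 in all young libraries for each of its 7 transcripts, and Bcl3-004 was listed at 0, 0.32, 0, 1.20 and 0 in aged libraries 1 to 5, below the minimum for testing. These values stood for 13 reads in aged library 2 and 28 in aged library 4. The 5 Bcl3 transcripts above 0 were so in aged library 2, 3 or 4 and in no other library, among them Bcl3-003 at 1.13 in aged library 3.

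Tnfaip3 (chr10:19000910-19015410) encodes A20, the ubiquitin-editing enzyme that ends signaling from the TNF receptor. The young libraries were at 0.19, 0, 0, 0.40 and 0 and the aged libraries at 0, 0, 0, 0.03 and 0. All of these are close to the limit of an FPKM of 1, which stands for 87.9 to 152.8 reads on this transcript of 4422 bases, and the gene was below the minimum for testing. Of the 6 listed transcripts 3 were above 0 in any library.

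Birc3 (chr9:7847468-7873205) encodes cIAP2, a ubiquitin ligase that acts at the TNF receptor and, with cIAP1 and the TRAF proteins, keeps NIK low. The young libraries were at 1.68, 1.22, 1.07, 1.27 and 1.15 and the aged libraries at 2.06, 1.85, 0, 2.98 and 1.88. In 4 of the 5 aged libraries the level was above every young library, and in aged library 3 it was listed at 0. The difference was 0.47 (95% interval -0.53 to 1.47) and did not pass the exact permutation test (p = 0.413). Without aged library 3 it was 0.91 (exact permutation p = 0.00794, 5 young and 4 aged libraries). Leaving out young library 3 as well gave 0.86 (exact permutation p = 0.0286, the smallest that 4 against 4 can give), and without aged library 4 it was 0.17 (exact permutation p = 0.786).

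The transcript behind these values, Birc3-008, is a transcript of 565 bases marked for nonsense-mediated decay in GENCODE, at 25 to 41 reads in young libraries and 42 to 118 reads in the aged libraries above 0. The protein-coding Birc3-001, of 2667 bases, was at 0.71, 0.25, 0, 0.50 and 0.50 in young libraries and at 1.18, 0.74, 0.02, 1.91 and 0.88 in aged libraries. It had the same order of libraries at the extremes, with library 3 the lowest of each age and aged library 4 the highest, and its difference of 0.55 did not pass the exact permutation test (p = 0.127). With the library number as a block it passed (limma unadjusted p = 0.0368, adjusted p = 0.593), and the aged library was higher in 5 of 5 pairs. Aged library 4 held the highest value of each of the 7 Birc3 transcripts, and 2 of them were above 0 in that library alone.

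**Figure D3:**
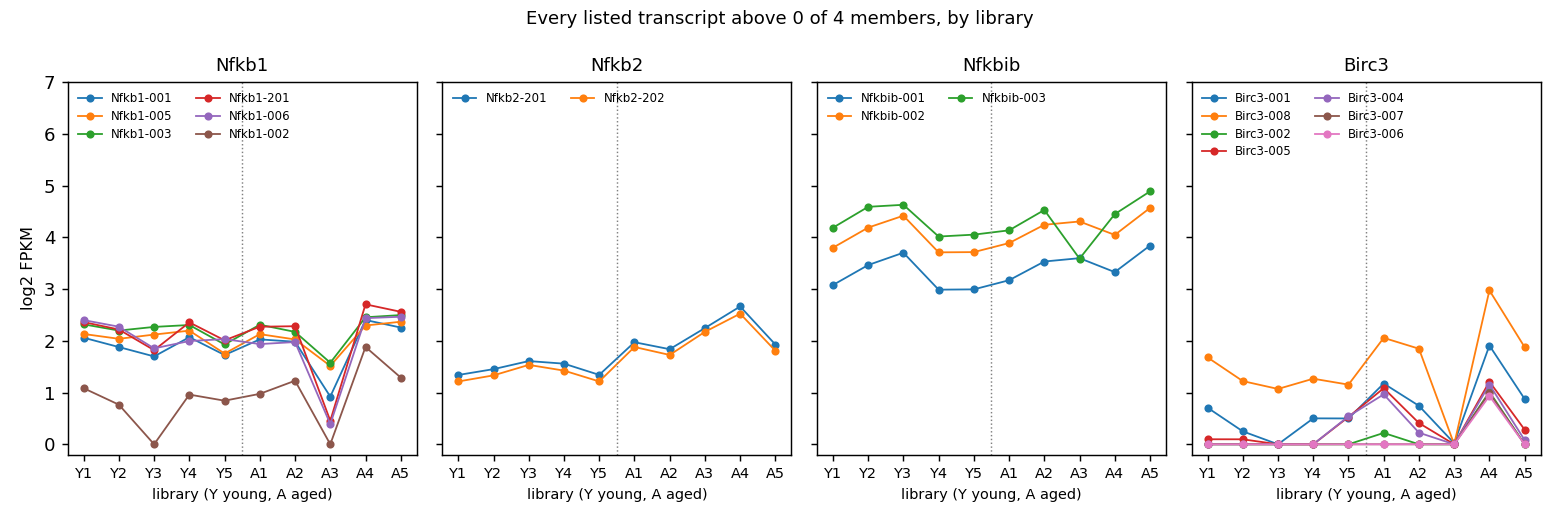
Log2 FPKM (y axis) of every transcript above 0 of Nfkb1, Nfkb2, Nfkbib and Birc3 in young libraries 1 to 5 (Y) and aged libraries 1 to 5 (A), with 1 line for each transcript. Aged library 3 is low for Nfkb1, for Birc3 and for Nfkbib-003 but not for Nfkb2 or the other Nfkbib transcripts.

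Around these genes, 70 other genes of the pathway in 4 lists were examined, of which 42 were tested and 19 were at 0 in all libraries. By the exact permutation test 7 of the 42 were higher in aged muscle and 0 lower, against 7.73% and 1.5% of all genes. Of the 42, however, 6 (Map3k14, Ccl2, Ccl5, Ccl7, Cxcl10 and Saa3) reached the minimum mean FPKM only through the aged libraries, where they were high, so that a difference in that direction was built into their selection. Of the 36 genes with a mean FPKM of at least 1 in each age, 5 were higher and 0 lower, against 7.12% and 1.49% of 9805 genes chosen in the same way. The 6 members tested had this level in both ages. By limma 0 of the 36 had an adjusted p under 0.05, and 4 (Tnfrsf12a, Chuk, Cflar and Ier3) were higher and 0 lower at an unadjusted p under 0.05, against 5.36% and 0.836% of the 9805 genes. Without both libraries numbered 3 the exact test called 6 of the 42, with Cyld and Tnip2 in place of Birc2, Cxcl10 and Plau. The share of all genes called in that setting was not counted, so this 6 has no background beside it. The median difference of all genes was 0.136 there, and with 4 against 4 libraries only the smallest possible p can pass. The plot of differences shows the 42 genes beside the members.

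**Figure D4:**
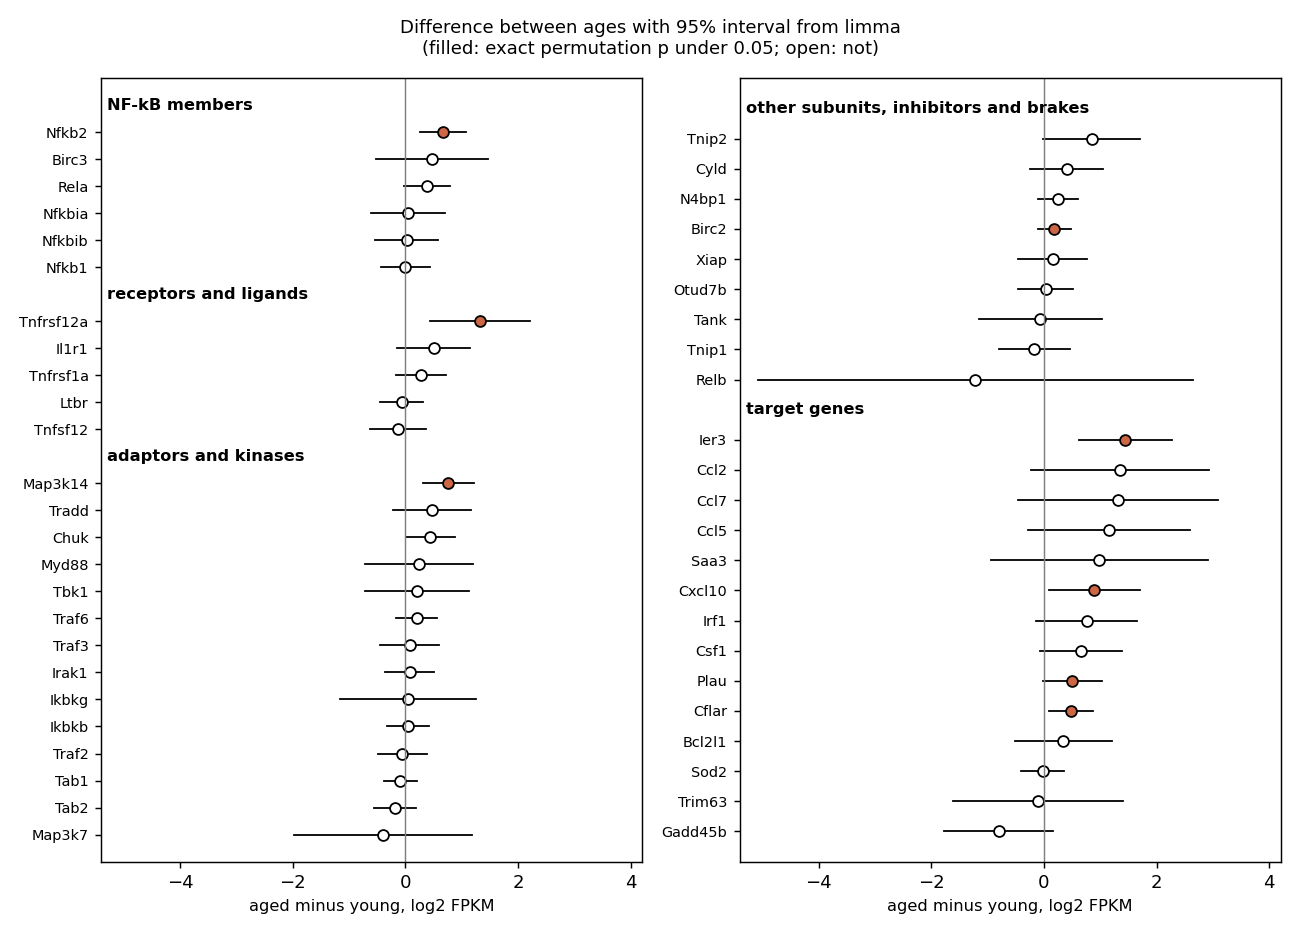
Difference in mean log2 FPKM between aged and young muscle (x axis) of the 6 tested members and of 42 other pathway genes in 4 lists, with the 95% interval from limma. Filled points had an exact permutation p under 0.05, Nfkb2 of the members and 7 of the others, of which Map3k14 and Cxcl10 were tested only through the aged libraries.

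Among the 14 receptors and ligands, 5 were tested and 1, Tnfrsf12a, was higher in aged muscle. The gene encodes Fn14, the receptor of the cytokine TWEAK, which signals to both branches in muscle. Its log2 FPKM was 2.48, 3.12, 3.64, 2.33 and 3.03 in young and 3.37, 3.72, 5.15, 3.90 and 5.09 in aged libraries, so that only young library 3 reached into the range of the aged libraries. The difference was 1.33 (exact permutation p = 0.0159, n = 5). The ligand genes Tnf, Il1a and Il1b and the receptor genes Tlr2, Tlr3 and Tnfrsf11a were at 0 in all libraries.

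Of 18 adaptors and kinases, 14 were tested, and none of the 13 with a mean FPKM of at least 1 in each age passed the exact test. Chuk, which encodes the kinase IKKα, was at 0.64 to 1.28 in young and 0.94 to 1.57 in aged libraries (exact permutation p = 0.0556). By limma Chuk passed without a block (limma unadjusted p = 0.0479) and with the library number as a block (limma unadjusted p = 0.0222, adjusted p = 0.562). The remaining gene, Map3k14, encodes NIK, the kinase that starts the processing of p100. It was at 0.21, 0, 0, 0.37 and 0 in young and at 0.72, 0.85, 0.37, 1.42 and 1.03 in aged libraries. All aged libraries were above 0, against 2 of the 5 young libraries, and young library 4 and aged library 3 were level at 0.37. Its mean FPKM was 0.489 in young and 1.89 in aged muscle, so that it was tested only because of the aged libraries, and its difference of 0.76 is given as a description. Among 12 other subunits, inhibitors and brakes, 9 were tested and 1 passed the exact test. This was Birc2, which encodes cIAP1, higher by 0.18 (exact permutation p = 0.0317). Birc2 did not pass by limma, without the block (limma unadjusted p = 0.201) or with it (0.213). Cyld and Tnip2 passed by limma with the block (limma unadjusted p = 0.0388 and 0.0377) but not without it (0.203 and 0.0533). The Tnip2 transcript has the length of a retained intron transcript of 383 bases, at 8 to 42 reads where above 0.

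Of 26 target genes, 14 were tested, 9 of them with a mean FPKM of at least 1 in each age, and of these 3 (Ier3, Cflar and Plau) were higher and 0 lower in aged muscle, against 7.12% and 1.49% of all genes at that level. None of the remaining 6 passed the test, with differences of -0.81 for Gadd45b, -0.11 for Trim63, -0.03 for Sod2, 0.35 for Bcl2l1, 0.65 for Csf1 and 0.76 for Irf1. Ier3, an immediate early gene linked to cell survival, was at 0.72 to 1.78 in young libraries, and at 2.49, 2.29, 4.21, 2.43 and 3.09 in aged libraries, with no overlap and a difference of 1.44 (exact permutation p = 0.00794). Cflar, which encodes the caspase inhibitor c-FLIP, did not overlap either, with 1.17 to 1.78 in young and 1.83 to 2.38 in aged libraries, and its difference was 0.49 (exact permutation p = 0.00794). Its most abundant transcript, Cflar-007, is a noncoding processed transcript in GENCODE, and the call was lost for the mean over the transcripts of the gene (0.33, exact permutation p = 0.0714) and with quantile normalization (0.43, exact permutation p = 0.230).

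The chemokine gene Cxcl10 was above 0 in 1 young and 4 aged libraries, with a mean FPKM of 0.311 in young and 2.13 in aged muscle, a description for the same reason as for Map3k14. Its transcript, Cxcl10-003, has the length of a retained intron transcript of 344 bases, at 13 to 42 reads where above 0. Plau, the gene of urokinase, differed by 0.50 (exact permutation p = 0.0397). It did not pass by limma, without the block (limma unadjusted p = 0.0586) or with it (0.0855). The difference of Plau fell to 0.32 without aged library 3 (exact permutation p = 0.0873) and to 0.27 without both libraries numbered 3 (exact permutation p = 0.143). Without both, Birc2 (0.13, exact permutation p = 0.114) did not pass either. The inflammatory targets Cxcl1, Il6, Ptgs2, Bcl2a1a, Traf1, Mmp9, Sele and Selp were at 0 in all libraries. Other inflammatory targets, named after their values were seen, were at 0 in every young library and above 0 in some aged libraries. The chemokine genes Ccl2, Ccl7 and Ccl5 reached 4.09, 4.67 and 3.43 in aged library 3 or 4, and the acute phase gene Saa3 was at 4.91 in aged library 4 alone. The adhesion molecule genes Icam1 and Vcam1 were below the minimum for testing, with Icam1 above 0 in 4 of 5 aged libraries at up to 1.64 and Vcam1 at up to 1.25. Immediate early genes, which many stimuli induce within a short time, were higher in aged muscle for Junb, 1 of the 6 with a mean FPKM of at least 1 in each age. Fos and Egr1 reached the minimum only through the aged libraries, and Fosb, Jun, Atf3, Ier2 and Dusp1 did not pass the exact test. Ier2 passed by limma, without the block (limma unadjusted p = 0.0431) and with it (0.0155). The part of the immediate early genes, and that of the macrophage markers above, in the values of the pathway genes was not tested.

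**Figure D5:**
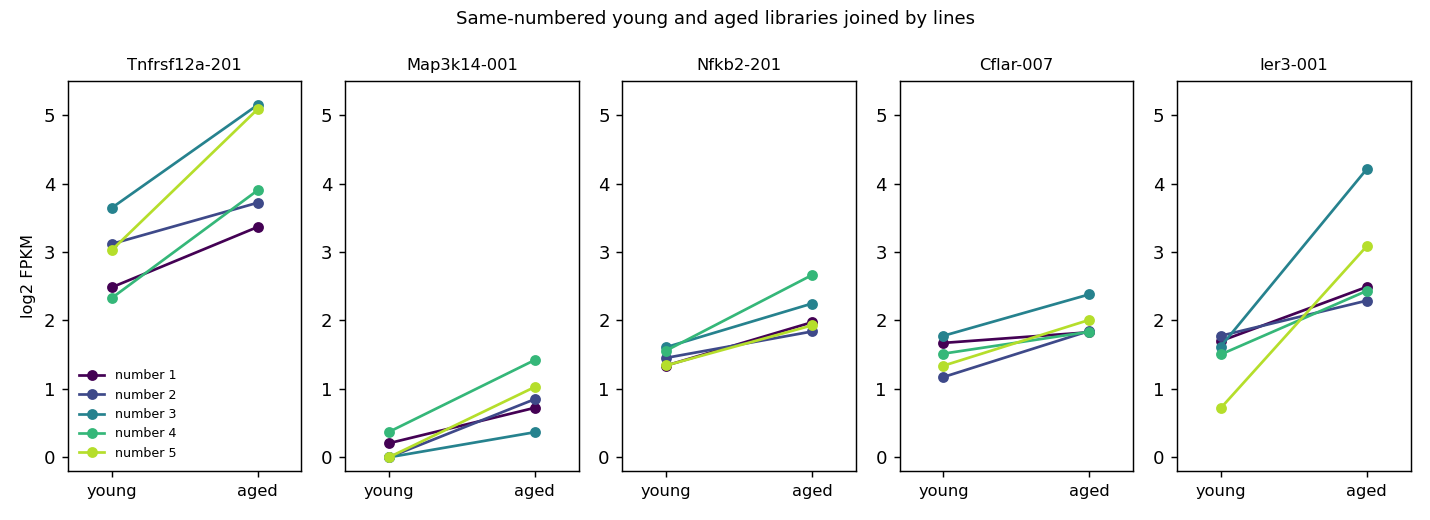
Log2 FPKM (y axis) of Tnfrsf12a, Map3k14, Nfkb2, Cflar and Ier3, with same-numbered young and aged libraries joined by a line. The 5 genes are ones that were higher in the aged library for all 5 numbers and were chosen after their values were seen, so that the shared direction is no finding, and Map3k14 was tested only through its aged libraries.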

How the data were processed

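RNA sequencing of 5 young and 5 aged gastrocnemius muscles was analysed, 1 mouse a library. The authors mapped poly-A paired-end reads to mm10 with TopHat2 and deposited log2 FPKM for each transcript, with low values listed as 0 and replicates not pooled. The counting program is not given in the sources used here. Rows carry Ensembl and Vega transcript names, although the methods name RefSeq genes. The 233 rows with no gene name were assigned to no gene. The labels gave the age and number of each library.

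Deposited values were used as they were. A mean FPKM of 1 was the minimum for testing, which was done by exact two-sided permutation over all 252 labellings and by limma 3.58.1 (R 4.3.3, Benjamini-Hochberg adjustment over 38059 transcripts). The exact p-values of single genes are unadjusted. Each is the share of labellings with a difference of means at least as large as the observed one. Calculations and plots were made in Python 3.11.15 (scipy 1.17.1, pandas 2.3.3, matplotlib 3.10.9, numpy 2.4.6). Scripts were tested on simulated data. Whole reads were recovered from the FPKM at a fitted or GENCODE length within 0.01 read, for depth and precision only.

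The members and lists were chosen with earlier results of these data known. All 10 members are named, and of the other lists the genes past the permutation test, with some others named after their values were seen. Adgre1 is listed under its older symbol, Emr1. Same-numbered young and aged libraries deviated from their groups together (correlations of 0.131, 0.332, 0.695, 0.390 and 0.208 for numbers 1 to 5, -0.0376 on average for the other combinations), so that the number was used as a block in an alternative. That alternative used limma's unadjusted p in place of the exact test. Other alternatives left out each library or both numbered 3, added a pseudocount of 1 or 0.1, rescaled the libraries, changed the filter, or averaged the transcripts of a gene.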

Additional observations from a re-analysis of the deposited data

Results flagged for a closer look

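Among 29 groups of 5 libraries over 15 genes, 4 held a library far from the other 4 by Dixon's criterion (a gap over 0.71 of the range). Chance gives about 1 in 20 groups for continuous values, a rate that does not apply to groups in which most libraries are listed at 0, as for Tnfaip3, Bcl3 and Cxcl10. Aged library 4 was high for Bcl3 at 1.20 log2 FPKM, and for Tnfaip3 it was the only aged library above 0, at 0.0323. Young library 2 was the only young library above 0 for Cxcl10, at 0.639. Young library 5 was low for Ier3 at 0.718, further below the aged libraries than the other 4.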

How the results depend on the processing

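The difference of Nfkb2 was positive and past the test under all 18 alternatives run, at 0.52 to 0.74. Tnfrsf12a and Ier3 also passed under all 17 of theirs, whereas Birc2 failed under 9 of 17, Plau under 11 and Cflar under 2. With the minimum FPKM asked of each age, chosen after the data were seen, 5 pathway genes were called, and Map3k14 and Cxcl10 were no longer tested. The count of members past the test was 2 by limma with the replicate block (Nfkb2 and Rela). By the exact test it was 1 to 2 with each library left out in turn (Rela added without young library 3, Birc3 without aged library 3). It was 2 without both libraries numbered 3 (Nfkb2 and Birc3). The share of all genes called was not counted with the block, with libraries left out or with rescaling, so these counts are not set against a background. The count of other pathway genes, 7, became 4 to 9 with a library left out (4 without young library 1, 9 without aged library 2) and 4 with quantile normalization, with 1 gene (Gadd45b) lower without aged library 5. By limma with the block 9 pathway genes were called, 1 of them lower (Relb), against 6 by limma without it. Of the members and the 7 genes, only Rela, Birc2 and Plau had a call that differed from the exact test. Birc2 and Plau did not pass by limma without the block either (limma unadjusted p = 0.201 and 0.0586). Rela passed by limma with the block (0.0452) but not without it (0.0661).

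The differences of Nfkb1, Nfkbia and Nfkbib, near 0, changed sign. That of Nfkb1 was -0.0755 to 0.155 with a library left out, 0.171 without both numbered 3, 0.00359 with a pseudocount of 1, 0.00416 as the mean over its transcripts and 0.0313 at its longest transcript, an alternative chosen after the data were seen. That of Nfkbia was -0.145 to 0.194 with a library left out and -0.0188 with quantile normalization, and that of Nfkbib -0.119 to 0.206 and, with median-of-ratios scaling, -0.0168. None of these passed the test. That of Birc3, 0.47, was -0.224 with a pseudocount of 0.1. The cause was not tested. The median of all genes moved from 0.07 to 0.15 without aged library 3. No member passed limma's adjusted threshold or the 2-fold criteria in any alternative. Below an FPKM of 1 the files hold no values, which limits Rel, Nfkbiz, Bcl3 and Tnfaip3.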
